A study of Mus musculus with 12 samples.

Results

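The JR5558 mouse is an inbred line whose eyes develop vascular lesions under the retina without injury, and it is used as a model of neovascular macular degeneration with scarring. The comparison described here set retinas of this line at 8 weeks of age against retinas of the same line at 4 weeks. It contrasted 6 of the 12 libraries of the series, 3 JR5558 libraries at 4 weeks and 3 at 8 weeks. The other 6 came from C57BL/6J, the wild-type reference strain, in 3 libraries at 4 weeks and 3 at 8 weeks. They give the same age comparison in a normal retina and also entered the shared model, with its filter, scaling and estimate of spread. Each library was poly-A RNA of 1 whole retina from a separate mouse, and the labels give no treatment. They name no allele. As background, the line carries the rd8 mutation of Crb1, a gene of the Crumbs polarity complex, and a mutation in the kinase gene Jak3, and both are present at either age. Of 56748 genes in the deposited table, 17735 passed the filter on low counts and lay outside chromosomes X and Y. These are the genes described below.

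Between 4 and 8 weeks the mouse retina has all its cell types, photoreceptor outer segments have reached their adult form, and the retinal capillary beds finish remodelling. Pericytes, contractile cells wrapped around capillaries, and a basement membrane of collagen IV, laminin and nidogen stabilise these vessels. Many retinal transcripts also follow the time of day through a clock loop in which CLOCK and BMAL1 bind the E-box motif CACGTG, and others respond to circulating glucocorticoid and thyroid hormone.

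Total counts in the 6 JR5558 libraries ran from 19039719 to 23739886. The 30 genes of the rod list summed to 81525 to 90926 TMM-scaled CPM (counts relative to the library total) at 4 weeks and to 85726 to 88142 CPM at 8 weeks. Rpe65, a marker of the pigment epithelium behind the retina, was at 28.0 to 51.0 CPM at 4 weeks and at 34.6 to 54.6 CPM at 8 weeks, so some of that tissue was carried over at both ages. Replicate 3 at 4 weeks stood apart. On the first principal component of the JR5558 libraries, which held 54.8% of the variance of the 500 most variable genes, it lay at 41.3 and the other 5 libraries lay between -11.8 and -5.48. The sex-linked transcripts separated the ages as well. At 4 weeks the 3 JR5558 libraries had 0 to 5 counts of Xist and 1323 to 1846 counts of the Y-linked gene Ddx3y, whereas at 8 weeks they had 7772 to 12398 counts of Xist and 0 of Ddx3y. The 6 C57BL/6J libraries all had Xist, at 8928 to 22988 counts, and no Ddx3y. Age and sex therefore cannot be told apart in the JR5558 comparison or in its contrast with C57BL/6J, and the hour at which the retinas were taken is not given in the sources used here.

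From 4 to 8 weeks in JR5558 retina, 3 of 13 pericyte and smooth muscle markers, 3 of 20 endothelial markers and 3 of 28 matrix glycoprotein and remodelling genes fell, and most members of these lists were not called. Among 14 tested glucocorticoid-responsive genes 4 rose, and among 21 clock genes 3 rose and 2 fell. In edgeR's quasi-likelihood test 263 genes passed an adjusted p of 0.05 (Benjamini-Hochberg over all tested genes), which is 1.48% of those tested. Of these, 117 were higher at 8 weeks (0.66%) and 146 lower (0.823%). The changes were mostly below 2-fold, with 19 higher and 22 lower genes at 2-fold or more. The 3 libraries of one age did not overlap those of the other in any of the 263 called genes, against 24.3% of all tested genes. In the plot of fold change against adjusted p, Etnppl, Sgk1, Usp2 and Hdc stand high on the right, and Duxbl1, Sparc and Col3a1 on the left. The number of calls depended on which mice were included: it was 666 without replicate 3 at 4 weeks, and between 53 and 134 without any 1 of the other 5 libraries. Of the 263 called genes, 258 were also called, in the same direction, in the authors' deposited table, which called 998 genes outside X and Y.

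**Figure D1:**
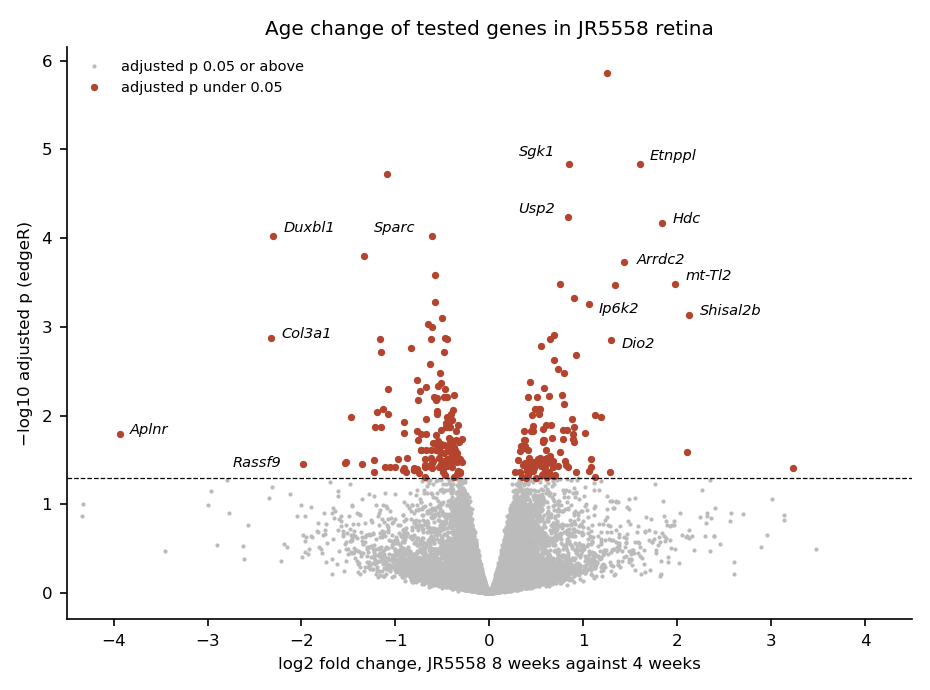
Age change of each tested gene in JR5558 retina, with the log2 fold change (8 against 4 weeks) across and −log10 of edgeR's adjusted p upwards. Red points are the 263 genes past the adjusted p of 0.05 (dashed line): 117 on the right, higher at 8 weeks, and 146 on the left.

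Of 13 tested pericyte and smooth muscle markers, 3 fell, none rose and 10 were not called. Abcc9, the sulfonylurea receptor subunit of the pericyte potassium channel, measured 11.5, 7.63 and 10.1 CPM in the 3 retinas at 4 weeks and 4.37, 4.75 and 3.62 CPM at 8 weeks. Its log2 fold change was -1.20 ± 0.22 (SE), with an adjusted p of 0.00901. All 3 retinas at 4 weeks lay above all 3 at 8 weeks, and leaving out replicate 3 at 8 weeks ended the call (adjusted p = 0.0842). Rgs5, a G-protein regulator used to mark pericytes, measured 119, 127 and 88.0 CPM at 4 weeks and 69.6, 74.7 and 76.4 CPM at 8 weeks, a log2 fold change of -0.60 ± 0.13 (adjusted p = 0.0205). Pdgfrb, the receptor that holds pericytes on the vessel, went from 21.8 to 26.3 CPM at 4 weeks to 15.3 to 18.8 CPM at 8 weeks, a log2 fold change of -0.48 ± 0.11 (adjusted p = 0.0384). The calls of Rgs5 and Pdgfrb held without replicate 3 at 4 weeks and ended without any 1 of the other 5 libraries, with adjusted p up to 0.124 and 0.273. The list's median log2 change was -0.58, against -0.01 over all tested genes and -0.18 for the same list in C57BL/6J. In C57BL/6J 1 member was called, and the direct test of the difference between the strains called 0. The smooth muscle genes Acta2 and Myh11 were not called, at -0.17 (adjusted p = 0.719) and 0.08 (adjusted p = 0.92). The summed level of the list was 1017 to 1080 CPM at 4 weeks and 1079 to 1120 CPM at 8 weeks. In C57BL/6J it was 966 to 1046 CPM at 4 weeks and 1173 to 1209 CPM at 8 weeks.

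Among 20 tested endothelial markers 3 fell, none rose and 17 were not called, with a median of -0.35 in JR5558 and -0.03 in C57BL/6J. The direct test of the difference between the strains called 0 of them. Without replicate 3 at 4 weeks 5 fell. Pecam1, the junction protein CD31, measured 14.3, 16.4 and 14.2 CPM at 4 weeks and 9.86, 10.4 and 10.1 CPM at 8 weeks, a log2 fold change of -0.56 ± 0.12 (adjusted p = 0.0244). Eng, the TGF-beta co-receptor endoglin, measured 11.9, 13.6 and 10.8 CPM and then 6.75, 7.76 and 7.39 CPM, a change of -0.72 ± 0.15 (adjusted p = 0.0162). Slco1a4, an organic anion carrier of the blood-retina barrier, changed by -0.69 ± 0.17 (adjusted p = 0.0495), from 21.8 to 34.1 CPM down to 17.1 to 18.1 CPM. In each of these genes the lowest retina at 4 weeks lay above the highest at 8 weeks. Each of the 3 calls ended without any 1 of the 5 libraries other than replicate 3 at 4 weeks, with adjusted p up to 0.0960 for Eng, 0.130 for Pecam1 and 0.211 for Slco1a4. Cldn5, the tight junction gene of capillaries, was just short of a call at -0.57 (adjusted p = 0.0546), and the VEGF receptor gene Flt1 and the fenestration gene Plvap were not called, at 0.21 and 0.43. The summed level of the endothelial list was 508 to 540 CPM at 4 weeks and 490 to 524 CPM at 8 weeks, so the ranges overlapped. In whole tissue, fewer cells of a type and less RNA per cell cannot be told apart.

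Aplnr, the apelin receptor of sprouting endothelium, had 32, 19 and 16 counts at 4 weeks and 1, 3 and 0 counts at 8 weeks. Its fitted log2 change of -3.94 ± 0.79 (adjusted p = 0.0161) rests on those few counts. The call held without replicate 3 at 4 weeks and without replicate 2 at 8 weeks, and ended without each of the other 4 libraries (adjusted p up to 0.134). It was the only call among 25 tested angiogenic ligands and receptors, whose median was -0.13. Cd93 and Itga1, an endothelial C-type lectin and the alpha subunit of a collagen receptor, were picked out after their values were seen. Cd93 fell from 7.00 to 8.00 CPM down to 3.15 to 4.88 CPM, a log2 change of -0.97 ± 0.22 (adjusted p = 0.0311). Itga1 fell from 5.02 to 6.14 CPM down to 2.43 to 2.75 CPM, a log2 change of -1.13 ± 0.21 (adjusted p = 0.0085). Leaving out a library ended the call of Itga1 once, for replicate 3 at 8 weeks (adjusted p = 0.0609), and that of Cd93 for 4 of the 6 libraries: replicates 1 and 2 at 4 weeks and replicates 1 and 3 at 8 weeks (adjusted p up to 0.211).

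Col3a1, the fibrillar collagen III chain of vessel walls and scars, measured 4.25, 6.59 and 2.60 CPM at 4 weeks and 0.777, 0.887 and 1.00 CPM at 8 weeks, so its level at 8 weeks was 0.2 of that at 4 weeks (log2 fold change -2.32 ± 0.34, adjusted p = 0.00132). The call held without each of the 6 libraries in turn, with adjusted p up to 0.0125. In C57BL/6J the change of Col3a1 was -0.73 ± 0.34 (adjusted p = 0.331), and the difference between the strains was not called (adjusted p = 0.42). Sparc, a matricellular collagen-binding protein, measured 463, 439 and 438 CPM at 4 weeks and 291, 279 and 307 CPM at 8 weeks (log2 fold change -0.61 ± 0.07, adjusted p = 9.41e-05). Sparc fell in C57BL/6J too, by 0.45 ± 0.07 (adjusted p = 0.00504). The gelatinase gene Mmp2 measured 6.68, 8.36 and 9.23 CPM and then 3.55, 4.70 and 3.24 CPM, a change of -1.07 ± 0.20 (adjusted p = 0.00964). Its call ended without replicate 1 or replicate 3 at 8 weeks (adjusted p up to 0.0871), and that of its membrane-bound activator Mmp14 (-0.55 ± 0.12, adjusted p = 0.0226) without any 1 of the 5 libraries other than replicate 3 at 4 weeks (adjusted p up to 0.139).

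One matrix gene rose: Ccn2, the connective tissue growth factor gene, at 39.6, 30.3 and 49.1 CPM at 4 weeks and 62.7, 70.6 and 78.2 CPM at 8 weeks (log2 fold change 0.83 ± 0.16, adjusted p = 0.0145). The groups did not overlap, and the call ended without replicates 1 or 2 at 4 weeks and without replicates 2 or 3 at 8 weeks (adjusted p up to 0.109). In all, 3 of 28 tested matrix glycoprotein and remodelling genes fell and 1 rose, with a median of -0.29 in JR5558 and 0.03 in C57BL/6J. The difference between the strains was called for 0 of the 28. Of the basement membrane genes, Col4a1 measured 53.9, 62.1 and 56.5 CPM at 4 weeks and 37.0, 38.4 and 37.9 CPM at 8 weeks (-0.60 ± 0.14, adjusted p = 0.034), and the linker gene Nid1 changed by -1.0 ± 0.24 (adjusted p = 0.0384). Both calls ended without any 1 of the 5 libraries other than replicate 3 at 4 weeks (adjusted p up to 0.164 for Col4a1 and 0.207 for Nid1). Col4a2, the partner chain of Col4a1, was not called, at -0.39 ± 0.12 (adjusted p = 0.114). Among 36 tested collagen chains Col3a1 and Col4a1 were the only calls and the median was -0.02, so the list as a whole lay near all tested genes. The fibrillar collagen I genes were not called: Col1a1 stood at 0.50 ± 0.35 (adjusted p = 0.498) and Col1a2 at -0.66 ± 0.24 (adjusted p = 0.158).

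**Figure D2:**
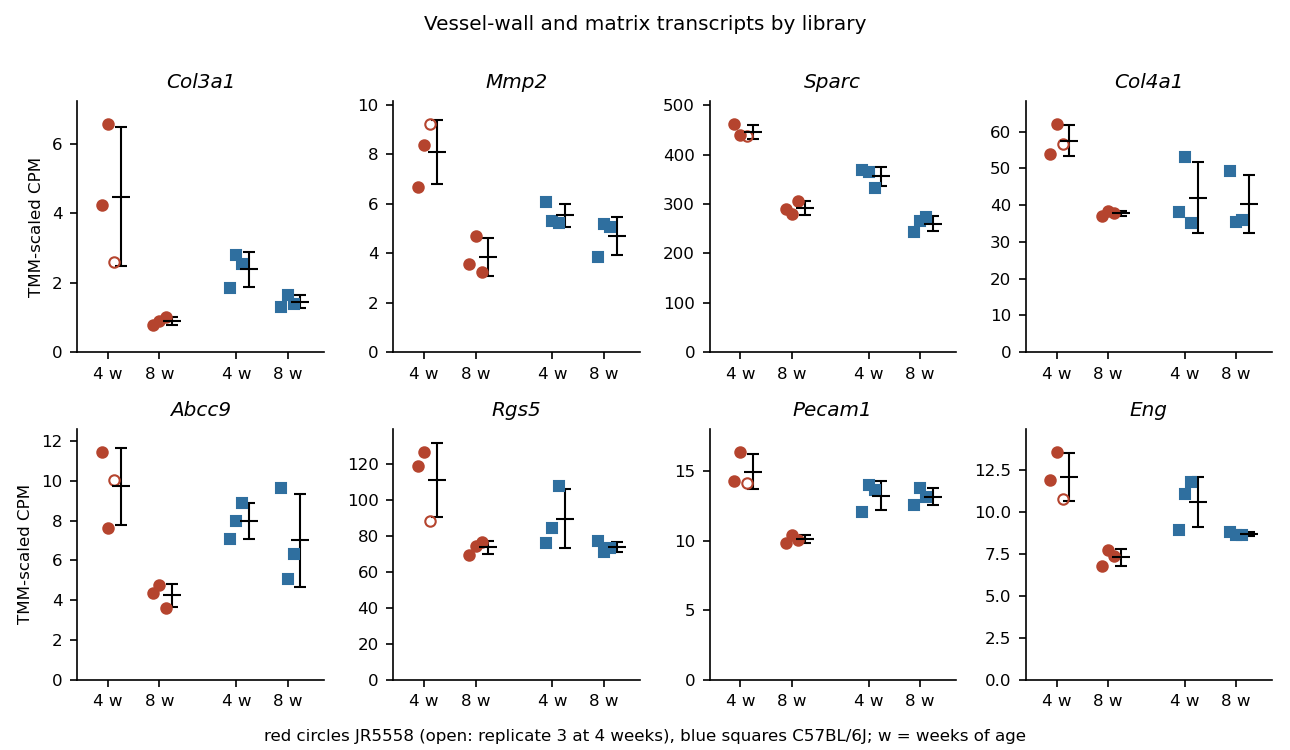
TMM-scaled CPM of 8 vessel-wall and matrix genes in each library at 4 and 8 weeks (w), with JR5558 as red circles, C57BL/6J as blue squares, and the mean ± SD (n = 3) as black bars. In every panel the 3 red points at 8 weeks lie below the 3 at 4 weeks, of which replicate 3 is drawn open.

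Haemoglobin transcripts fell in the same libraries. Hbb-bs measured 24.8, 31.3 and 33.0 CPM at 4 weeks and 12.2, 10.5 and 12.2 CPM at 8 weeks (-1.35 ± 0.31, adjusted p = 0.0355), and Hba-a1 12.9, 13.8 and 16.6 CPM and then 6.17, 6.43 and 5.91 CPM (-1.22 ± 0.30, adjusted p = 0.0432). These genes share reads with the near-identical copies Hbb-bt and Hba-a2, so the split between copies is uncertain. The call of Hba-a1 ended without each of the 6 libraries in turn (adjusted p up to 0.215), and that of Hbb-bs without any 1 of the 5 libraries other than replicate 3 at 4 weeks (adjusted p up to 0.164). Robust empirical Bayes, a setting chosen after seeing the data, ended both (adjusted p = 0.168 for Hbb-bs and 0.117 for Hba-a1). The summed level of the 5 tested blood cell genes was 61.8 to 79.3 CPM at 4 weeks and 40.9 to 42.6 CPM at 8 weeks, and its part in the vessel result was not tested. Choroid fibroblast and melanocyte genes gave 3 calls among 16. Col3a1, which is also on that list, and the melanocortin receptor gene Mc1r (-0.80 ± 0.19, adjusted p = 0.0406) fell, and Ptgds, the prostaglandin D synthase gene, rose (0.64 ± 0.15, adjusted p = 0.0432). The summed level of that list was 426 to 568 CPM at 4 weeks and 570 to 716 CPM at 8 weeks. In C57BL/6J it was 191 to 267 CPM and then 286 to 384 CPM. Its median log2 change was 0.07 in JR5558 and 0.25 in C57BL/6J. Pigment epithelium markers in JR5558 had no call among 21 and overlapping sums of 750 to 976 CPM and 773 to 968 CPM. The call of Mc1r ended without any 1 of the 5 libraries other than replicate 3 at 4 weeks (adjusted p up to 0.211), and that of Ptgds without replicate 2 at 4 weeks or any 1 retina at 8 weeks (adjusted p up to 0.262) and, with all libraries, under robust empirical Bayes and DESeq2 (adjusted p = 0.15 and 0.055).

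No gene that hydroxylates or crosslinks collagen passed the test. P4ha1 encodes the main catalytic subunit of the prolyl 4-hydroxylase that the title of the series names. It measured 68.7, 54.2 and 64.6 CPM at 4 weeks and 74.0, 74.2 and 79.9 CPM at 8 weeks. The groups did not overlap, yet the log2 fold change of 0.28 ± 0.09 did not pass the test (adjusted p = 0.107). In C57BL/6J P4ha1 stood at -0.30 ± 0.09 (adjusted p = 0.136), and the difference between the strains was not called either (0.58 on the log2 scale, adjusted p = 0.118). Per length, in the authors' FPKM, P4ha1 was at 15.1 ± 1.78 (SD, n = 3) at 4 weeks and 18.4 ± 0.832 at 8 weeks, and the other catalytic subunits were lower, P4ha2 at 2.14 ± 0.109 and 2.55 ± 0.169 and P4ha3 at 0.123 ± 0.0761 and 0.0885 ± 0.0237. P4hb, the shared beta subunit and a general disulfide isomerase, was at 69.2 ± 7.13 and 71.4 ± 0.776 FPKM. In edgeR's test the log2 changes of P4ha2, P4ha3 and P4hb were 0.25, -0.47 and 0.04, none of them called. The whole list of collagen hydroxylation and crosslinking genes had 0 calls among 28 tested and a median of -0.03.

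Proline metabolism likewise had 0 calls among 21 tested genes and a median of -0.02. Proline synthesis genes stood at 0.29 ± 0.32 for Pycr1 and 0.11 ± 0.10 for Aldh18a1. The breakdown genes Prodh and Aldh4a1 stood at 0.17 ± 0.12 and -0.11 ± 0.14, and Oat, which links ornithine to proline, at -0.02 ± 0.08. Their adjusted p-values ran from 0.5 for Prodh to 0.916 for Oat. The strain genes showed no call with age: Crb1 measured 190, 190 and 144 CPM at 4 weeks and 162, 156 and 158 CPM at 8 weeks (-0.14 ± 0.10, adjusted p = 0.527), and Jak3 12.2, 6.69 and 5.25 CPM and 9.72, 11.3 and 8.82 CPM (0.30 ± 0.25, adjusted p = 0.584). The values of Crb1 and Jak3 overlapped between the ages. Neither count measures the activity of the mutant product.

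Of 21 tested circadian clock genes 3 rose (Usp2, Ciart and Per1) and 2 fell (Rora and Rorb). The promoters of the 3 that rose are shown, with that of Klf15, a daily and glucocorticoid-responsive transcription factor picked out after its values were seen. Each is the RefSeq window from 250 bases before to 50 bases after the gene start (GRCm38.p6), 5′ to 3′ on the gene's strand, and capitals mark the E-box CACGTG, which reads the same on both strands.
Ciart, chr3:95882179-95882478, minus strand: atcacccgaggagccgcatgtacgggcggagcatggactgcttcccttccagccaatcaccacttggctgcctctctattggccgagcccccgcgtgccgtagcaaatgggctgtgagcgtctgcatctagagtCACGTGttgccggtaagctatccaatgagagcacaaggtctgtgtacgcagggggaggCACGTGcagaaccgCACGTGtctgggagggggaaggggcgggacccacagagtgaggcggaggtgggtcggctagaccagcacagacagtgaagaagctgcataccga
Per1, chr11:69098699-69098998, plus strand: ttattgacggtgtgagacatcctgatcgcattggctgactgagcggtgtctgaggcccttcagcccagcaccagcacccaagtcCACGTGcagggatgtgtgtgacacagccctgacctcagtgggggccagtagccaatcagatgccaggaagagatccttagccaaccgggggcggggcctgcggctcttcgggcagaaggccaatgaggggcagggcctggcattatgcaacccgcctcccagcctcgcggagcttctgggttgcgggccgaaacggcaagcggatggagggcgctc
Usp2, chr9:44084670-44084969, plus strand: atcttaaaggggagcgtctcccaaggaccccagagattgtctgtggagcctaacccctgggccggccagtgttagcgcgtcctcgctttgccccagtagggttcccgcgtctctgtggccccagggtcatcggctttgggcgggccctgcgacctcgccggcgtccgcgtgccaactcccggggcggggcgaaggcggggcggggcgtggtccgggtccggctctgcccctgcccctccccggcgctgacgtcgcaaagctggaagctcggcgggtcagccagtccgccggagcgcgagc
Klf15, chr6:90462326-90462625, plus strand: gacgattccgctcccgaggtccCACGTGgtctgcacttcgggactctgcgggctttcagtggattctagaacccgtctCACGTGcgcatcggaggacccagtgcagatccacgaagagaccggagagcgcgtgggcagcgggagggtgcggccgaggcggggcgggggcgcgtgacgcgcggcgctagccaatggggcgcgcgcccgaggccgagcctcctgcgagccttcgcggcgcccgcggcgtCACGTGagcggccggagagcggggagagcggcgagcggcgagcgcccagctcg
Ciart holds the motif 3 times, starting 116, 58 and 44 bases before the gene start, and Klf15 holds it 3 times, starting 228, 172 and 3 bases before it. The window of Per1 shown holds it once, 166 bases before the start, the second RefSeq start of that gene does not hold it, and the window of Usp2 has none. The windows of Fkbp5, Rora and Rorb were also searched and are not shown. That of Fkbp5 holds the motif once, 169 bases before the start, and those of Rora and Rorb have none. Windows of the clock genes that were not called were not looked at one by one. Of all 32851 promoter windows given, 7.15% hold the motif. By gene symbol it is in at least 1 window of 11.0% of the 12060 tested genes with an entry, in 17 of the 90 that rose (18.9%) and in 8 of the 92 that fell (8.7%). These are matches of letters only, and no binding was measured.

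Usp2, a ubiquitin protease that acts in the clock loop, measured 95.2, 106 and 129 CPM at 4 weeks and 197, 203 and 192 CPM at 8 weeks (log2 fold change 0.84 ± 0.09, adjusted p = 5.82e-05). Ciart, a repressor of CLOCK and BMAL1 with 3 E-boxes in its window, measured 12.0, 11.8 and 13 CPM and then 26.2, 21.2 and 21.6 CPM (0.91 ± 0.12, adjusted p = 0.000473). For both genes the ages were well separated and the call held without each of the 6 libraries in turn. Per1, a core repressor of the loop that glucocorticoid also induces, measured 68.0, 83.6 and 106 CPM and then 128, 126 and 115 CPM (0.52 ± 0.12, adjusted p = 0.0311). Rora and Rorb, nuclear receptors that activate Arntl and also act in photoreceptor development, fell by 0.41 ± 0.08 (adjusted p = 0.00964) and 0.43 ± 0.09 (adjusted p = 0.0135). The calls of Per1, Rora and Rorb ended without any 1 of the 5 libraries other than replicate 3 at 4 weeks, with adjusted p up to 0.122, 0.0757 and 0.0994. The other core genes were not called, among them Arntl at -0.15, Clock at -0.29, Per2 at 0.37, Cry1 at 0.21, Nr1d1 at 0.14 and Dbp at 0.28. The list's median was 0.04, against -0.05 in C57BL/6J, where 0 of the 21 were called. The direct test of the difference between the strains called 1 of them, Usp2.

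Glucocorticoid-responsive genes gave 4 rises and no fall among 14 tested, with a median of 0.41 in JR5558 and -0.03 in C57BL/6J. The difference between the strains was called for 0 of the 14. Sgk1, a kinase that glucocorticoid and mineralocorticoid receptors induce, measured 238, 231 and 259 CPM at 4 weeks and 439, 422 and 452 CPM at 8 weeks, a 1.8-fold rise (log2 fold change 0.85 ± 0.08, adjusted p = 1.47e-05). Sgk1 rose in C57BL/6J as well, by 0.58 ± 0.08 (adjusted p = 0.00315). Arrdc2, an arrestin-domain gene, measured 8.99, 9.78 and 14.2 CPM and then 25.8, 31.0 and 32.4 CPM, a 2.71-fold rise (1.44 ± 0.18, adjusted p = 0.000186). The calls of Sgk1 and Arrdc2 held without each of the 6 libraries in turn. Fkbp5, a co-chaperone of the glucocorticoid receptor, rose by 0.42 ± 0.10 (adjusted p = 0.0345), a call that ended without any 1 of the 5 libraries other than replicate 3 at 4 weeks (adjusted p up to 0.16), and Per1 is the fourth. Klf15 went from 8.17, 6.95 and 11.8 CPM to 15.4, 16.5 and 17.9 CPM (0.89 ± 0.18, adjusted p = 0.0163), a call that ended without replicates 1 or 2 at 4 weeks and without replicates 2 or 3 at 8 weeks (adjusted p up to 0.113). Not called were Klf9 at -0.05, Errfi1 at -0.01 and the receptor gene Nr3c1 at -0.10.

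**Figure D3:**
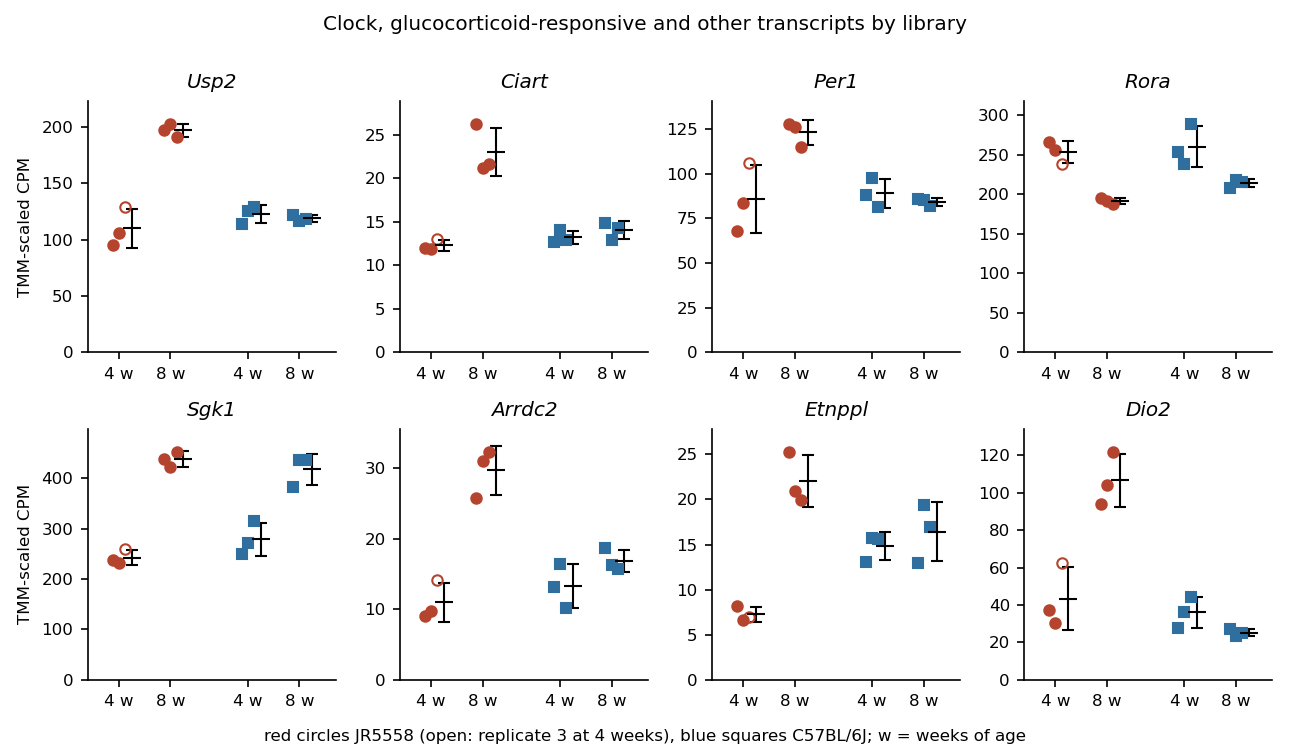
TMM-scaled CPM of 8 clock-linked, hormone-responsive and other genes in each library at 4 and 8 weeks (w), with JR5558 as red circles, C57BL/6J as blue squares, and the mean ± SD (n = 3) as black bars. In JR5558 all 7 genes other than Rora are higher at 8 weeks in every retina, and Etnppl and Usp2 show overlapping ages in C57BL/6J.

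The largest rises with at least 1 CPM came from varied genes. Shisal2b, a Shisa-like membrane protein gene, measured 0.743, 2.4 and 1.57 CPM at 4 weeks and 6.32, 6.61 and 7.43 CPM at 8 weeks, a 4.38-fold rise (2.13 ± 0.30, adjusted p = 0.000727). Hdc, which makes histamine, measured 0.866, 1.62 and 1.62 CPM and then 4.96, 4.43 and 5.10 CPM, a 3.57-fold rise (1.84 ± 0.21, adjusted p = 6.73e-05), and it rose in C57BL/6J by 1.09 ± 0.15 (adjusted p = 0.00248). Etnppl, a phospholyase of glial lipid metabolism, measured 8.17, 6.64 and 6.97 CPM and then 25.3, 21.0 and 19.9 CPM, a 3.03-fold rise (1.60 ± 0.16, adjusted p = 1.45e-05). In each of these the ages were separated by a wide gap. The mitotic checkpoint gene Bub1b rose by 1.33 ± 0.17 (adjusted p = 0.000335), while the list of proliferation genes had 0 calls among 10. Dio2, which activates thyroid hormone in glia, measured 37.5, 30.5 and 62.2 CPM and then 94.0, 104 and 122 CPM (1.30 ± 0.20, adjusted p = 0.00139), with its highest value at 4 weeks in the replicate that stood apart. The calls of Shisal2b, Hdc, Etnppl, Bub1b and Dio2 held without each of the 6 libraries in turn, as did that of the mitochondrial tRNA mt-Tl2 (1.98 ± 0.26, adjusted p = 0.00033), whose short product is poorly sampled by poly-A libraries.

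Gpx3, a secreted glutathione peroxidase, measured 49.8, 32.1 and 28.3 CPM at 4 weeks and 61.6, 104 and 86.1 CPM at 8 weeks (1.19 ± 0.22, adjusted p = 0.0104). It rose in C57BL/6J by 1.61 ± 0.23 (adjusted p = 0.00248), and it was the only call among 23 antioxidant and metal handling genes in JR5558. Its call ended without replicate 2 at 4 weeks and without replicates 2 or 3 at 8 weeks (adjusted p up to 0.0745), and under robust empirical Bayes (adjusted p = 0.108). Alpk2, Tcea3, Naprt and the immediate early gene Egr3, 1 call of 25 on its list (6 without replicate 3 at 4 weeks), completed the 12 largest rises, at 1.13, 1.09, 1.08 and 1.28 on the log2 scale. The call of Alpk2 ended without replicate 2 at 8 weeks (adjusted p = 0.0541), and that of Naprt without each library except replicate 3 at 4 weeks and replicate 1 at 8 weeks (adjusted p up to 0.182). Those of Tcea3 and Egr3 ended in 5 of the 6 leave-one-out fits (adjusted p up to 0.154 and 0.168); Tcea3 kept it only without replicate 3 at 4 weeks and Egr3 only without replicate 1 at 4 weeks.

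Among the largest falls outside the vessel genes, Duxbl1, a double homeobox gene with close copies and so of uncertain read assignment, measured 26.8, 27.8 and 16.3 CPM at 4 weeks and 6.17, 4.70 and 3.53 CPM at 8 weeks (-2.30 ± 0.27, adjusted p = 9.41e-05). It fell in C57BL/6J too, by 1.73 ± 0.27 (adjusted p = 0.00504). The kinesin gene Kif19a fell from 11.1, 12.2 and 11.8 CPM to 5.25, 5.63 and 4.91 CPM (-1.15 ± 0.18, adjusted p = 0.00194), and Apobec2, a member of the cytidine deaminase family, changed by -1.17 ± 0.17 (adjusted p = 0.00136). These 3 calls held without each of the 6 libraries in turn. Other large falls were those of Boc, Rspo2, Scube3 and Rassf9. Boc, a Hedgehog co-receptor, fell by 1.47 ± 0.28 (adjusted p = 0.0104), Rspo2, a Wnt agonist, by 1.22 ± 0.24 (adjusted p = 0.0135), Scube3, a secreted Hedgehog and BMP partner, changed by -1.15 ± 0.23 (adjusted p = 0.0135), and Rassf9 by -1.98 ± 0.46 (adjusted p = 0.0355) at under 3 CPM. The call of Boc ended without replicate 1 at 4 weeks or replicate 3 at 8 weeks (adjusted p up to 0.0871), that of Rspo2 without replicate 2 at 4 weeks and without replicates 2 or 3 at 8 weeks (up to 0.106), that of Scube3 without replicates 1 or 2 at 4 weeks and without replicates 2 or 3 at 8 weeks (up to 0.103), and that of Rassf9 without any library except replicate 3 at 4 weeks (up to 0.225).

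Few photoreceptor genes passed the test. Of 30 rod genes 1 rose and 1 fell, with a median of -0.01, and 0 of 14 cone genes were called. In C57BL/6J the rod list had 4 calls and a median of 0.12. Its sum there was 86044 to 92348 CPM at 4 weeks and 95655 to 100950 CPM at 8 weeks. The direct test of the difference between the strains called 0 of the 30 rod genes. Guca1b, an activating protein of photoreceptor guanylate cyclase, measured 654, 728 and 813 CPM at 4 weeks and 1128, 1195 and 1222 CPM at 8 weeks in JR5558 (0.69 ± 0.10, adjusted p = 0.00122), and the call held without each library in turn. The axoneme gene Rp1 went from 1811, 1799 and 1526 CPM to 1304, 1221 and 1235 CPM (-0.45 ± 0.10, adjusted p = 0.0333), a call that ended without any 1 of the 5 libraries other than replicate 3 at 4 weeks (adjusted p up to 0.174). The cilium genes Rpgrip1 (-0.76 ± 0.14, adjusted p = 0.00673) and Cc2d2a (-0.47 ± 0.08, adjusted p = 0.005) fell, 2 of 30 on their list, and both calls ended without replicate 3 at 8 weeks (adjusted p = 0.0669 and 0.0609). At the photoreceptor synapse Stx3, the syntaxin of ribbon synapses, was 1 call of 22 (-0.29 ± 0.07, adjusted p = 0.0333), and it too ended without any 1 of the 5 libraries other than replicate 3 at 4 weeks (adjusted p up to 0.196). The Crumbs complex and junction list had 0 calls among 25.

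In the inner retina 2 of 19 bipolar cell markers fell. Isl1, a LIM factor of ON bipolar, amacrine and ganglion cells, fell by 0.31 ± 0.08 (adjusted p = 0.0435), a call that held without replicate 3 at 4 weeks, ended without any 1 of the other 5 libraries (adjusted p up to 0.234), and missed the threshold with no filter on low counts and in the fit of the 6 JR5558 libraries alone (adjusted p = 0.058 and 0.0524). The ON bipolar genes Grm6 and Trpm1 were not called, at -0.22 and -0.26, and the list's median was -0.14 in JR5558 and 0.07 in C57BL/6J. Its summed level was 2411 to 2510 CPM at 4 weeks and 2143 to 2174 CPM at 8 weeks. These ranges did not overlap, and neither did those of the horizontal cell list (476 to 513 CPM, then 427 to 440 CPM). The sums of the outer segment and cilium, photoreceptor synapse, and Crumbs complex and junction lists were also lower at 8 weeks without overlap. Those of the rod, cone, ganglion cell and amacrine cell lists overlapped. In C57BL/6J the horizontal cell sum (437 to 455 CPM, then 404 to 419 CPM) and the Crumbs complex and junction sum also fell without overlap. The bipolar sum was higher at 8 weeks there (2149 to 2213 CPM, then 2244 to 2295 CPM). The outer segment and cilium and photoreceptor synapse sums overlapped in that strain. In JR5558 amacrine and horizontal cell markers had 0 calls among 20 and 9, and 1 of 20 ganglion cell markers fell, Jam2, a junction protein (-0.36 ± 0.08, adjusted p = 0.0244). The call of Jam2 ended without any 1 of the 5 libraries other than replicate 3 at 4 weeks (adjusted p up to 0.167).

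Glial and immune lists gave few calls. Summed levels were higher at 8 weeks without overlap for resting Müller glia markers (7221 to 8005 CPM, then 8268 to 8669 CPM). The same held for activated microglia and macrophage genes (1453 to 1691 CPM, then 1806 to 2081 CPM) and for cytokines and chemokines. Both of these sums were higher at 8 weeks without overlap in C57BL/6J too. There they were 1231 to 1691 CPM, then 1755 to 1805 CPM, and 233 to 250 CPM, then 254 to 264 CPM. The Müller sum overlapped in C57BL/6J (6099 to 6779 CPM, then 6675 to 7072 CPM). In JR5558 the sums of the reactive glia, astrocyte, homeostatic microglia, complement, MHC class I, interferon-stimulated and JAK-STAT lists overlapped. Reactive glia genes had 0 calls among 26, with Gfap, the intermediate filament of stressed Müller glia, at 75.6, 42.3 and 55.3 CPM and then 43.0, 43.8 and 52.4 CPM (-0.32 ± 0.15, adjusted p = 0.29). Of 21 resting Müller glia markers (4 risen and 2 fallen without replicate 3 at 4 weeks) Prdx6, a peroxiredoxin, rose (0.37 ± 0.07, adjusted p = 0.015), a call that ended without replicates 1 or 2 at 4 weeks and without replicates 1 or 3 at 8 weeks (adjusted p up to 0.103). Homeostatic microglia genes had 0 calls among 13, activated microglia and macrophage genes 0 among 21, MHC class I genes 0 among 15, and interferon-stimulated genes 0 among 27. The medians of the last 2 lists were 0.35 and 0.34 in JR5558 and 0.25 and 0.17 in C57BL/6J. Cd59a, a membrane inhibitor of complement lysis with a near copy, was the only call of 15 complement genes, at 14.6, 16.0 and 7.95 CPM and then 20.6, 20.1 and 23.5 CPM (0.73 ± 0.17, adjusted p = 0.0369), with its lowest value in the replicate that stood apart. Its call ended without replicate 1 at 4 weeks and without any 1 retina at 8 weeks (adjusted p up to 0.215), and in the fit of the 6 JR5558 libraries alone (adjusted p = 0.058).

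Metabolic and stress lists gave scattered calls. Hspa1b, an inducible chaperone with a near-identical copy, measured 28.7, 30.0 and 29.3 CPM at 4 weeks and 49.1, 42.8 and 44.7 CPM at 8 weeks (0.64 ± 0.11, adjusted p = 0.00596), 1 call of 21 (4 without replicate 3 at 4 weeks) that held without each library in turn. Glycolysis had 2 rises among 23, Pfkl, the liver-type phosphofructokinase (0.42 ± 0.09, adjusted p = 0.0299), and Aldoa, an aldolase (0.27 ± 0.07, adjusted p = 0.043). Aldoa also counted in the hypoxia response list with Pfkfb3, a regulator of glycolytic flux (0.46 ± 0.11, adjusted p = 0.0423), 2 of 25. Acadm, a mitochondrial fatty acid dehydrogenase, rose by 0.38 ± 0.08 (adjusted p = 0.0187). Dhcr7, the last enzyme of cholesterol synthesis, and Scd1, a fatty acid desaturase, fell by 0.51 ± 0.10 (adjusted p = 0.0145) and 0.52 ± 0.11 (adjusted p = 0.026), 2 of 26 lipid synthesis genes. Each of these 6 calls ended in 3 to 5 of the 6 leave-one-out fits, always including those without replicate 2 at 4 weeks and without replicates 2 or 3 at 8 weeks, and held without replicate 3 at 4 weeks (adjusted p up to 0.182 for Pfkfb3, 0.242 for Aldoa and 0.172 for Scd1).

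Of 73 tested cytosolic ribosomal protein genes 9 rose and none fell, and 70 lay above 0, with a median of 0.29 in JR5558 and 0.19 in C57BL/6J. Rps2 measured 133, 132 and 135 CPM at 4 weeks and 169, 184 and 180 CPM at 8 weeks (0.41 ± 0.07, adjusted p = 0.0061), and Rpl13a rose by 0.77 ± 0.14 (adjusted p = 0.00591). These genes have many processed copies, so their counts are uncertain. The number of calls on this list was 23 higher and 1 lower without replicate 3 at 4 weeks, the fit with 666 calls over all tested genes. Without any 1 of the other 5 libraries the calls over all tested genes were 53 to 134. The call of Rpl13a ended without replicate 3 at 8 weeks (adjusted p = 0.0511). Nuclear oxidative phosphorylation genes had 2 rises among 71, Ndufs3 and Cox7c, with a median of 0.17 (C57BL/6J 0.14), and 9 rises without replicate 3 at 4 weeks. Both calls held without replicate 3 at 4 weeks and ended without any 1 of the other 5 libraries (adjusted p up to 0.234 for Ndufs3 and 0.291 for Cox7c).

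Replication-dependent histone genes had 3 rises among 25, H2bc4 (0.64 ± 0.10, adjusted p = 0.00136), H3c15 (1.02 ± 0.21, adjusted p = 0.0158) and H2ac6 (0.81 ± 0.18, adjusted p = 0.0324), with medians of 0.48 in JR5558 and 0.44 in C57BL/6J. Histone genes resemble each other closely, and most of their transcripts carry no poly-A tail. H2bc4 kept its call without each library in turn, whereas H3c15 lost it without replicate 2 at 4 weeks or replicate 3 at 8 weeks (adjusted p up to 0.118) and H2ac6 without replicate 2 at 4 weeks or replicates 1 or 3 at 8 weeks (up to 0.158). Gene length moved with these results. The median length of the called genes was 2769 bases for those that rose and 5344 bases for those that fell, against 3835 bases for all tested genes. Across tested genes, Spearman's rho between length and log2 age change was -0.22 in JR5558 and -0.23 in C57BL/6J, a description over genes that share libraries. The part of length in these results was not tested.

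**Figure D4:**
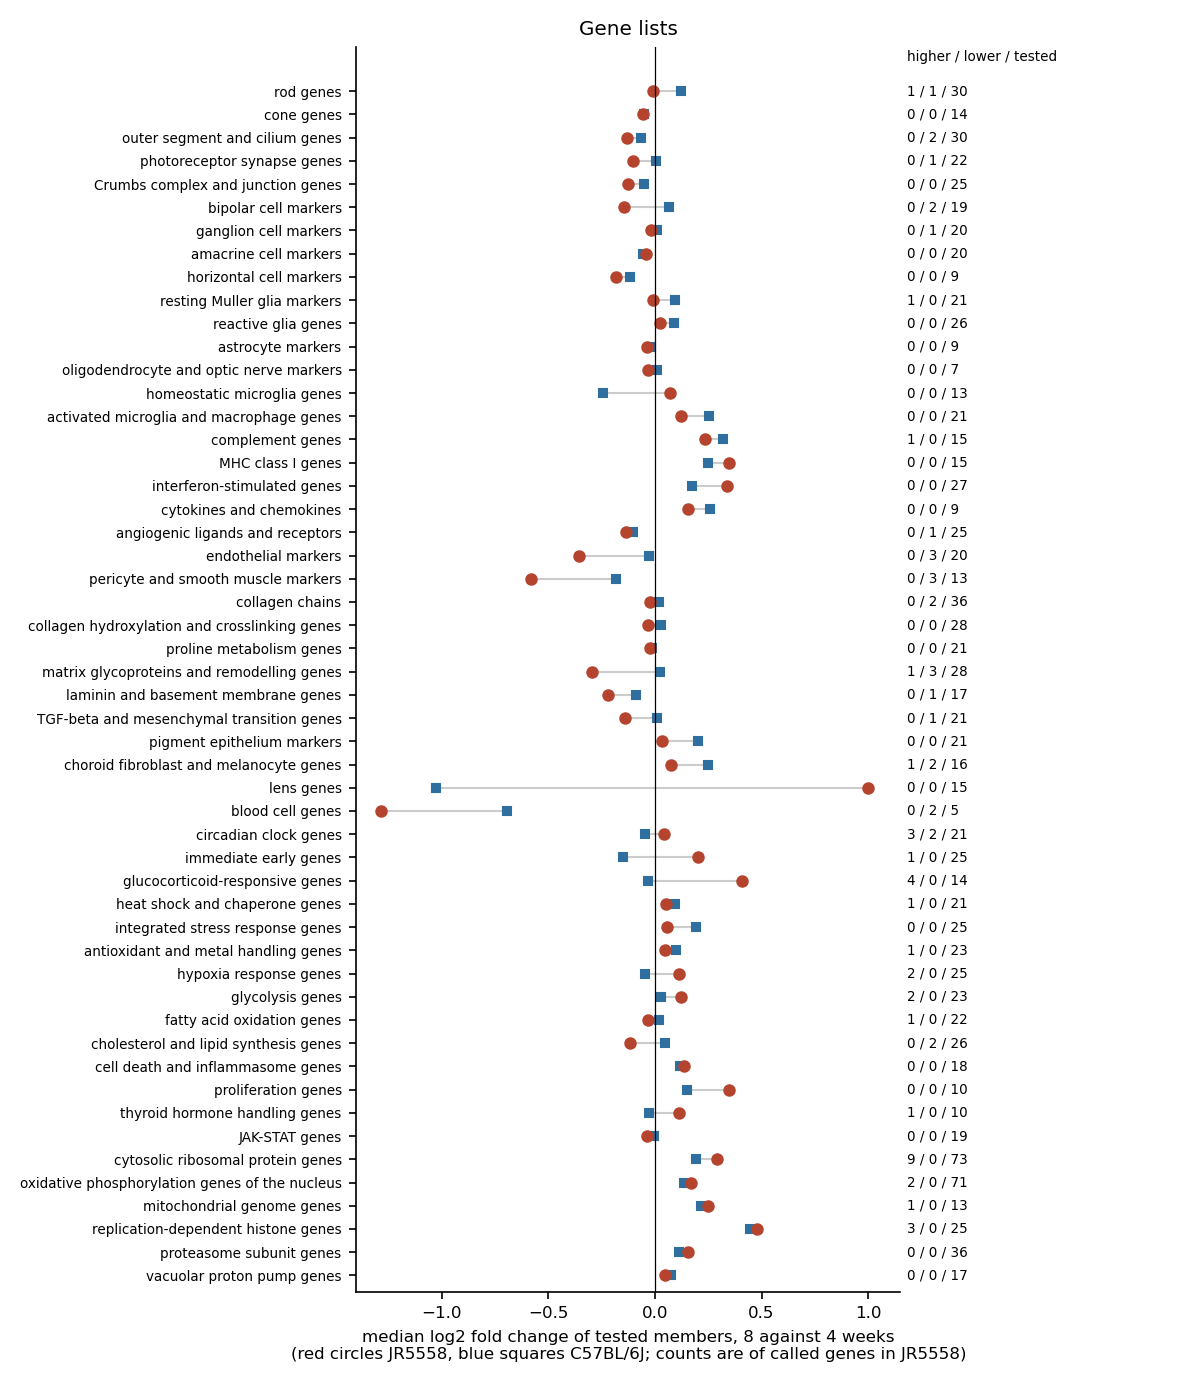
Median log2 fold change from 4 to 8 weeks of the tested members of each gene list with at least 5 of them, in JR5558 (red circles) and C57BL/6J (blue squares), with the numbers called higher, called lower and tested in JR5558 on the right. Pericyte markers (median -0.58) and blood cell genes (-1.28) lie far to the left in JR5558; the lens list (1.00) had 0 calls.

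The same comparison in C57BL/6J called 74 genes (0.417% of those tested), 35 higher and 39 lower. Of the 263 genes called in JR5558, 23 were called in C57BL/6J as well, which is 8.75% of the JR5558 calls and 31.1% of the C57BL/6J calls, and 22 of them changed in the same direction. The genes that rose in JR5558 had a median log2 change of 0.61 there and 0.20 in C57BL/6J, and those that fell had -0.55 and -0.17. The 2 comparisons share no libraries. Of the 263 calls 217 (82.5%) had the same sign in C57BL/6J, against 62.6% of all tested genes.

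A direct test of the difference between the 2 age changes called 12 genes, 0.0677% of those tested, 5 with a more positive change in JR5558 and 7 with a more negative one. Vsx1, a homeobox factor of cone bipolar cells, differed by -0.71 ± 0.13 on the log2 scale (adjusted p = 0.0435), and neither strain's own change was called. Ip6k2, an inositol hexakisphosphate kinase, measured 158, 171 and 277 CPM at 4 weeks and 410, 428 and 419 CPM at 8 weeks in JR5558, against 244, 291 and 259 CPM and then 197, 220 and 221 CPM in C57BL/6J (difference 1.37 ± 0.20, adjusted p = 0.00799). Usp2 differed by 0.89 ± 0.13 (adjusted p = 0.00799), with C57BL/6J at 114 to 129 CPM at 4 weeks and 117 to 122 CPM at 8 weeks. For Etnppl the difference was 1.45 ± 0.22 (adjusted p = 0.00886), with C57BL/6J at 13 to 15.8 CPM and 13 to 19.4 CPM. The calls of Ip6k2, Usp2 and Etnppl held in each of the 12 leave-one-out fits, and that of Ip6k2 ended under robust empirical Bayes (adjusted p = 0.115).

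Dio2 rose in JR5558 and stood lower at 8 weeks in C57BL/6J, at 27.5, 36.6 and 44.3 CPM and then 27.2, 23.2 and 25.2 CPM, a change not called there (-0.52 ± 0.20, adjusted p = 0.251). The difference was 1.82 ± 0.28 (adjusted p = 0.0104), it ended under robust empirical Bayes (adjusted p = 0.252), and it lost its call in 1 of the 12 leave-one-out fits (adjusted p = 0.0585, without C57BL/6J replicate 2 at 8 weeks). H3f3b, a replacement histone, Slc38a3, a glutamine carrier of Müller glia, and Arrdc3, an arrestin-domain gene, were not called in JR5558 (-0.16, -0.16 and -0.26) and rose in C57BL/6J (0.50, 0.44 and 0.44). Their differences were -0.67 ± 0.11 (adjusted p = 0.0105), -0.61 ± 0.10 (adjusted p = 0.0106) and -0.70 ± 0.13 (adjusted p = 0.0465). For mt-Tl2 the difference was 1.93 ± 0.36 (adjusted p = 0.0465). The difference kept its call in 7 of 12 leave-one-out fits for H3f3b and Slc38a3, in 2 for Arrdc3 and mt-Tl2, and in 1 for Vsx1 (adjusted p up to 0.0781, 0.0654, 0.277, 0.23 and 0.241). With X and Y genes left out before the fit the adjusted p was 0.0666 for Arrdc3, 0.066 for mt-Tl2 and 0.0608 for Vsx1. The Arrdc3 difference also missed the threshold with RLE normalization (adjusted p = 0.0531), and with a filter of at least 1 CPM in 3 libraries both Arrdc3 and mt-Tl2 did (adjusted p = 0.0602 and 0.0519). The 3 JR5558 retinas at 4 weeks had at most 5 counts of Xist and the other libraries at least 7772, so sex cannot be told apart from age in these differences.

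**Figure D5:**
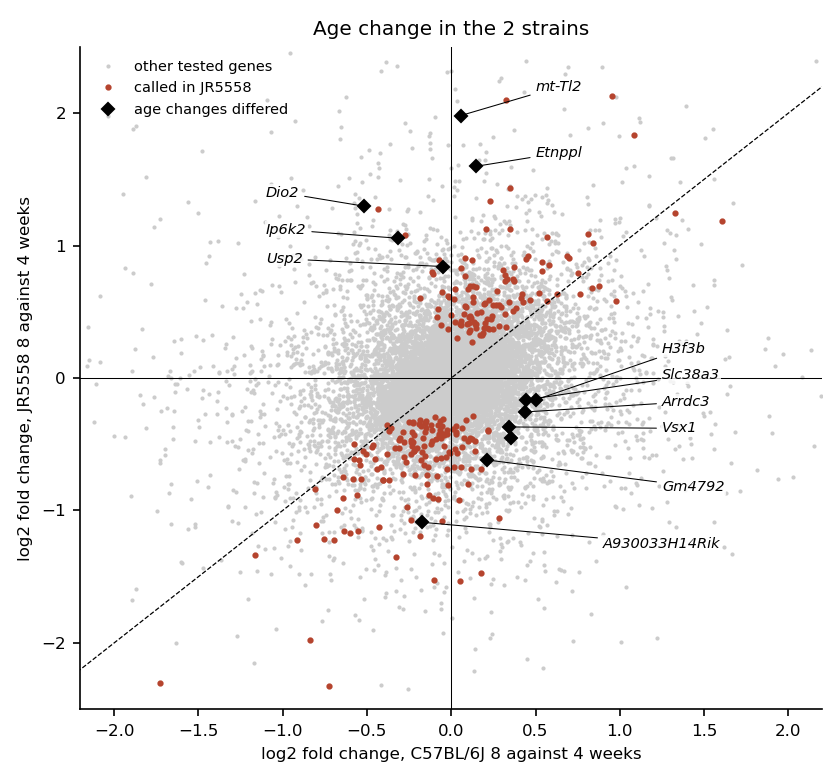
Log2 fold change from 4 to 8 weeks of tested genes in C57BL/6J (across) and JR5558 (upwards); the 70 genes beyond the axes are not drawn. Black diamonds are the 12 genes whose age changes differed, red points other genes called in JR5558, and the dashed line marks equal change. Ip6k2, Dio2 and Usp2 lie above 0 in JR5558 and below it in C57BL/6J. Among those that lie the other way are Vsx1, H3f3b, Slc38a3, Arrdc3 and Gm4792.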

How the data were processed

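Each replicate was poly-A RNA of 1 retina from a separate mouse. Reads had been trimmed, aligned and counted by the authors; the submitters' processing notes list HISAT2 (2.0.5), fastp, featureCounts (1.5.0-p3) and the build mm10, and strandedness is not given in the sources used here, so genes overlapping another on the opposite strand are uncertain. Per the file headers, the deposited table holds raw counts per gene and library, FPKM by the authors, and the log2 fold changes and adjusted p-values of comparisons run by the authors with a test that no source here names. The build of its gene positions is not settled, so none is printed.

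The tools were edgeR 4.0.16 (with limma 3.58.1) and DESeq2 1.42.0 under R 4.3.3. Genes passing filterByExpr (minimum count 10, minimum total 15) were scaled by TMM, and all 12 libraries entered 1 quasi-likelihood model with a mean for each group (18334 genes). P-values were adjusted over these by the Benjamini-Hochberg method, 2-sided, with a threshold of 0.05. The 599 tested genes on X and Y, 14 of them called, were then left out. CPM are TMM-scaled, and SE is the log2 fold change over the root of the F statistic. The alternatives were RLE scaling, other filters, DESeq2, leaving out X and Y first, a replicate block, fitting the 6 compared libraries alone, leaving out each library, and, chosen after seeing the data, robust empirical Bayes.

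The comparison, the 55 gene lists and the rule for named genes were chosen with earlier results of these data known. The rule names the 12 largest called changes in each direction (at least 1 CPM in the higher group, no overlap, no pseudogenes or provisional names), up to 3 called members per list, the strain, prolyl hydroxylase and proline genes, and up to 8 called differences in each direction. Cd93, Fkbp5, Itga1, Klf15, Mmp14, Ptprb, Rorb and the uncalled genes given as examples were picked after their values were seen. Results of some of these genes are left out of the text. Promoters are RefSeq windows of build GRCm38.p6.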

Additional observations from a re-analysis of the deposited data

Results flagged for a closer look

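The age change differed between JR5558 and C57BL/6J in 12 genes by the test of the difference itself (edgeR, adjusted p under 0.05). The differences, JR5558 minus C57BL/6J on the log2 scale, were 1.93 for mt-Tl2, 1.82 for Dio2, 1.45 for Etnppl, 1.37 for Ip6k2 and 0.89 for Usp2 on the positive side. On the negative side those reported here were -0.91 for A930033H14Rik, -0.83 for Gm4792, -0.71 for Vsx1, -0.70 for Arrdc3, -0.67 for H3f3b and -0.61 for Slc38a3. A930033H14Rik, a gene model with a provisional name, measured 38.3, 41.0 and 35.6 CPM at 4 weeks and 18.2, 15.7 and 20.2 CPM at 8 weeks in JR5558, and 25.2 to 30.4 CPM and 23.5 to 24.8 CPM in C57BL/6J. Gm4792, another such model, fell by 0.62 in JR5558 (adjusted p = 0.00136) and was not called in C57BL/6J (0.21, adjusted p = 0.301).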

How the results depend on the processing

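Of 75 called genes examined one by one, 68 chosen by the rule for named genes and 7 after their values were seen, 0 changed direction under any alternative, and 21 kept their call without each JR5558 library in turn. The 263 calls became 824 (548 higher, 276 lower) without a filter on low counts, 681 (352 and 329) with DESeq2, and 525 (304 and 221) with only the 6 JR5558 libraries, against 117 higher and 146 lower. They ranged from 53 to 666 when 1 library was left out, the highest without replicate 3 at 4 weeks. The 12 called differences became 89 without the filter and 51 with DESeq2, and ranged from 4 to 32 when 1 of 12 libraries was left out: 4 without C57BL/6J replicate 2 at 8 weeks, 32 without C57BL/6J replicate 3 at 4 weeks and 27 without JR5558 replicate 3 at 4 weeks. The 74 calls in C57BL/6J became 429 without the filter, 399 with DESeq2 and 21 with its 6 libraries alone, and ranged from 16 to 116 when 1 was left out. The causes of these shifts were not tested. The fits of 6 libraries and those that leave 1 out hold fewer libraries, and their numbers of calls moved in both directions. No filter on low counts was applied before DESeq2.

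With the replicate number as a block, 205 genes were called in JR5558, 8 differed between strains and 55 were called in C57BL/6J. The deviations of same-numbered JR5558 libraries correlated at -0.01, -0.00341 and 0.0883, and those of differently numbered ones at -0.085 to 0.0892. These values show no pairing by number. With 3 libraries per age they cannot establish that there is none, and C57BL/6J was not examined. Under the block 16 of these 75 calls were lost, with adjusted p from 0.0512 for Tcea3 to 0.0841 for Slco1a4, as were 3 of the called differences (mt-Tl2 at 0.084, Vsx1 at 0.102 and Arrdc3 at 0.0968).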
